A study of Mus musculus with 3 samples.

Results

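The 10 genes described here encode glypicans (Gpc1, Gpc3, Gpc4 and Gpc6), syndecans (Sdc1 and Sdc4) and enzymes that build or trim heparan sulfate (Ext1, Ndst1, Hs3st1 and Sulf1), out of 32285 genes in the count tables. They were selected on measured values, since Gpc4 was high and Hs3st1 nearly lost in endoderm cells with much Sfrp1 RNA, so that contrast is given below as a description and the other contrasts are levels from the same libraries. Heparan sulfate is a long sulfated sugar chain carried by core proteins at the cell surface and in basement membranes. Glypicans are held to the outer membrane by a lipid anchor, syndecans span the membrane, and both bind secreted ligands such as FGFs, Wnts and BMPs through their chains. The polymerase Ext1 works with Ext2 to extend the chain, Ndst1 starts its modification by N-sulfation, Hs3st1 adds a 3-O-sulfate that few sites receive, and Sulf1 is a secreted enzyme that removes 6-O-sulfates. In the peri-implantation embryo the visceral endoderm (VE) lies over the epiblast (Epi) with a basement membrane between them, and FGF signaling there depends on heparan sulfate.

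Cells of 3 kinds of aggregate were profiled by single-cell RNA-seq (10x Genomics 3' chemistry), with 1 library for each kind, and all came from E14tg2a mouse embryonic stem cells that carry a doxycycline-inducible GATA4 transgene (iGATA). BELAs, bilayered aggregates with a VE layer around an Epi core, were made from clone C6 given 0.5 µg/ml doxycycline for 8 h in 2i + LIF and moved to N2B27 for 16 h, then left for 3 days in N2B27 after seeding. VE cysts came from the same clone and the same first 8 h, but doxycycline stayed on for another 16 h, and 10 ng/ml FGF4 with 1 µg/ml heparin was in the medium then and through the 3 days after seeding. Epi cysts were grown from iGATA cells in growth factor-reduced matrigel, for 1 day in 2i + LIF and for 3 days in N2B27, and no doxycycline step is given for them. GATA4 induction came from 1 clone in BELAs and VE cysts, and picking of VE cysts aimed to leave out those with a visible Epi core. Heparin, itself a heavily sulfated chain of this family, was thus in the medium of VE cysts and is not listed for the other aggregates. What the endoderm of VE cysts owes to heparin, to FGF4, to longer doxycycline, to the missing Epi core or to the library cannot be told apart.

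Cells with at least 4000 detected genes and at most 10% mitochondrial molecules were kept, which left 1410 BELA, 657 Epi cyst and 625 VE cyst cells with medians of 82742, 60160 and 58554 UMIs (unique molecular identifiers, 1 per captured mRNA). A cell was called VE when its UMIs of Gata6, Sox17, Dab2 and Cubn together exceeded those of Pou5f1, Sox2, Nanog and Fgf4, and Epi otherwise. This gave 542 VE and 868 Epi cells in BELAs, 577 VE and 48 Epi cells in VE cysts, and 656 Epi cells and 1 VE cell in Epi cysts. The 6 further VE markers Foxa2, Amn, Lrp2, Hnf4a, Apoe and Ttr, which the call did not use, summed to 7681 CPM (UMIs scaled to the depth of the group) in BELA VE and 7157 CPM in VE cyst VE, against 783 CPM in BELA Epi and 279.7 CPM in Epi cyst Epi. The 5 further Epi markers Utf1, Dnmt3b, Tdgf1, Epcam and Otx2 were less distinct, at 811 CPM in BELA VE and 2244 CPM in BELA Epi. They summed to 280 CPM in VE cyst VE, less than in BELA VE, and to 1301 CPM in Epi cyst Epi. Between any pair of libraries at most 2 cell barcodes were shared, and none of them was kept in both.

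Levels are CPM, the UMIs of a gene summed over a group of cells and divided by all UMIs of that group times 1000000, with exact 95% Poisson intervals. The intervals cover counting error only. With 1 library per kind of aggregate there is no replicate error, so no test was made and no p-value is given. Ratios were taken on the log2 scale after adding 5 CPM to both levels, and a gene counted as higher or lower when that ratio passed 2-fold and the mean of the 2 levels was at least 5 CPM. A fall in level cannot be told from fewer cells of a type within a group.

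**Figure D1:**
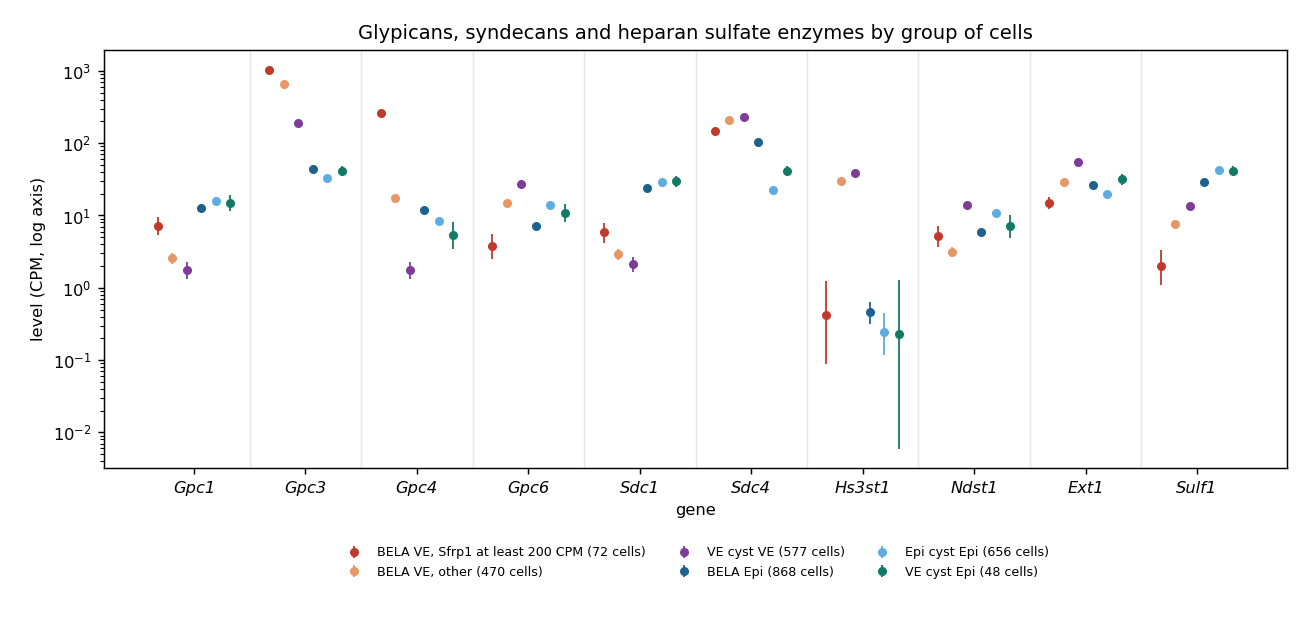
Level of each gene (CPM, logarithmic axis) in 6 groups of cells, with exact 95% Poisson intervals that cover counting error only. Gpc4 spans the widest range among VE cells, from 1.75 CPM in VE cysts to 265 CPM in BELA VE cells with at least 200 CPM of Sfrp1, and Hs3st1 lies below 0.5 CPM in that group and in all 3 Epi groups.

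The glypicans divided by lineage, with Gpc3 higher in VE and Gpc1 higher in Epi. Gpc3, the glypican mutated in an overgrowth syndrome, was at 709 CPM (702 to 716) in BELA VE and 43.7 CPM (42.2 to 45.3) in BELA Epi, a 16.2-fold ratio (15.6 to 16.8). In VE cysts it was at 189 CPM in VE and 41.6 CPM in Epi, and in Epi cyst Epi at 32.5 CPM. Every group of VE cells thus lay above every group of Epi cells, while the 3 Epi groups stayed between 32.5 and 43.7 CPM.

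Gpc4 did not follow the same order in both libraries. BELA VE held 49.2 CPM (47.4 to 51.1) and BELA Epi 11.7 CPM (10.9 to 12.5), 4.20-fold less. VE cyst VE held only 1.75 CPM (1.34 to 2.24), below the 5.34 CPM (3.39 to 8.01) of the 48 Epi cells in the same library and below the 8.41 CPM of Epi cyst Epi. Gpc3 and Gpc4 are neighbours on the X chromosome, at X:52272426-52613950 and X:52053021-52165252 (GRCm38), on the same strand and 107.2 kb apart. Between VE cysts and BELAs both were lower in VE cysts, but by different amounts.

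Gpc1 was at 12.8 CPM in BELA Epi, 15.9 CPM in Epi cyst Epi and 15.1 CPM in VE cyst Epi, and at 3.15 and 1.75 CPM in the VE cells of BELAs and VE cysts. Gpc6 was spread more evenly, from 7.20 CPM in BELA Epi to 27.2 CPM (25.5 to 29.0) in VE cyst VE, with BELA VE at 13.5 CPM and Epi cyst Epi at 13.8 CPM, whose intervals overlap. In VE cysts Gpc6 was just past 2-fold between VE and Epi, with a log2 ratio of 1.02.

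The syndecans split in the same manner. Sdc1, a syndecan of epithelia, was at 23.7 CPM (22.6 to 24.9) in BELA Epi, 29.3 CPM in Epi cyst Epi and 29.7 CPM in VE cyst Epi, and at 3.28 and 2.11 CPM in BELA VE and VE cyst VE. Sdc4, which sits in focal adhesions and binds fibronectin, was at 203 CPM (199 to 207) in BELA VE and 232 CPM (227 to 237) in VE cyst VE. Its Epi levels were 102 CPM in BELAs, 41.6 CPM in VE cysts and 22.5 CPM in Epi cysts. The log2 ratio of VE over Epi for Sdc4 was 2.35 in VE cysts and 0.95 in BELAs, short of 2-fold in the latter, where Epi cells held more of it.

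Of the enzymes, Hs3st1 had the largest plain ratio between VE and Epi in both libraries. It was at 26.5 CPM (25.2 to 27.9) in BELA VE and 0.458 CPM (0.315 to 0.643, 33 UMIs) in BELA Epi, a ratio of 57.9 (41.1 to 84.5). In VE cysts 38.4 CPM in VE stood against 1 UMI in Epi, a ratio of 165 with an interval from 29.6 to 6533, and Epi cyst Epi held 10 UMIs, 0.245 CPM. The level in BELA Epi was 1.73% of that in BELA VE, against 0.526% to 14.0% (median 1.45%) for the 6 further VE markers. For the 4 VE markers that set the lineage it was 0.686% to 1.34%, which the rule itself keeps low. Its gene lies at 5:39613935-39755475 (GRCm38, minus strand).

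To compare shares of cells, every cell was thinned to 40000 UMIs and shallower cells were left out (28 of 542 in BELA VE, 104 of 577 in VE cyst VE, 67 of 868 in BELA Epi). An Hs3st1 UMI was then found in 38.5% of 514 BELA VE cells and 62.6% of 473 VE cyst VE cells. In Epi cells the share was 1.62% of 801 in BELAs and 1.18% of 592 in Epi cysts, which is read as background. Before thinning, the shares were 51.5% and 70.9% in VE (median depth 90251 and 56914 UMIs) and 3.34% and 1.52% in Epi (78973 and 60131 UMIs). At these levels cells with no Hs3st1 UMI cannot be told from cells that were not sampled deeply enough, and the highest BELA VE cell held 469 CPM.

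Ext1 and Ndst1 differed less between the lineages. Ext1 was at 27.1 CPM in BELA VE and 26.0 CPM in BELA Epi, with overlapping intervals, and at 54.8 and 31.8 CPM in VE and Epi of VE cysts. Ndst1 was at 3.43 CPM (2.96 to 3.96) in BELA VE and 5.98 CPM (5.43 to 6.57) in BELA Epi, but at 13.8 CPM (12.6 to 15.1) in VE cyst VE and 7.20 CPM (4.89 to 10.2) in VE cyst Epi, so its order was turned round. Sulf1 was higher in Epi, at 29.3 CPM in BELAs, 42.5 CPM in Epi cysts and 41.6 CPM in VE cysts, against 6.99 and 13.4 CPM in the VE cells of BELAs and VE cysts. Its relative Sulf2, not among the members, had the other order. It was at 54.1 CPM in BELA VE and 36.1 CPM in BELA Epi, and at 52.3 and 39.7 CPM in VE and Epi of VE cysts.

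By the 2-fold rule 3 of the 9 members that reached the minimum level were higher in BELA VE than in BELA Epi (Gpc3, Gpc4 and Hs3st1) and 3 were lower (Gpc1, Sdc1 and Sulf1), and Ndst1 did not reach the minimum. Of all 9450 genes, 14.1% were higher and 8.85% lower, and 13.0% and 12.3% with mitochondrial and ribosomal UMIs left out of the total. Gpc4 and Hs3st1 were chosen by their levels in part of these BELA VE cells. Without the 72 cells with at least 200 CPM of Sfrp1, Gpc4 was at 17.3 CPM in BELA VE against 11.7 CPM in BELA Epi. Nothing is therefore read from the BELA count. In VE cysts 4 of 9 were higher in VE (Gpc3, Gpc6, Sdc4 and Hs3st1) and the same 3 were lower, with Gpc4 below the minimum, and 20.1% of 9672 genes were higher and 11.5% lower. The lower genes Gpc1, Sdc1 and Sulf1 are thus shared by both libraries, as are Gpc3 and Hs3st1 among the higher genes.

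**Figure D2:**
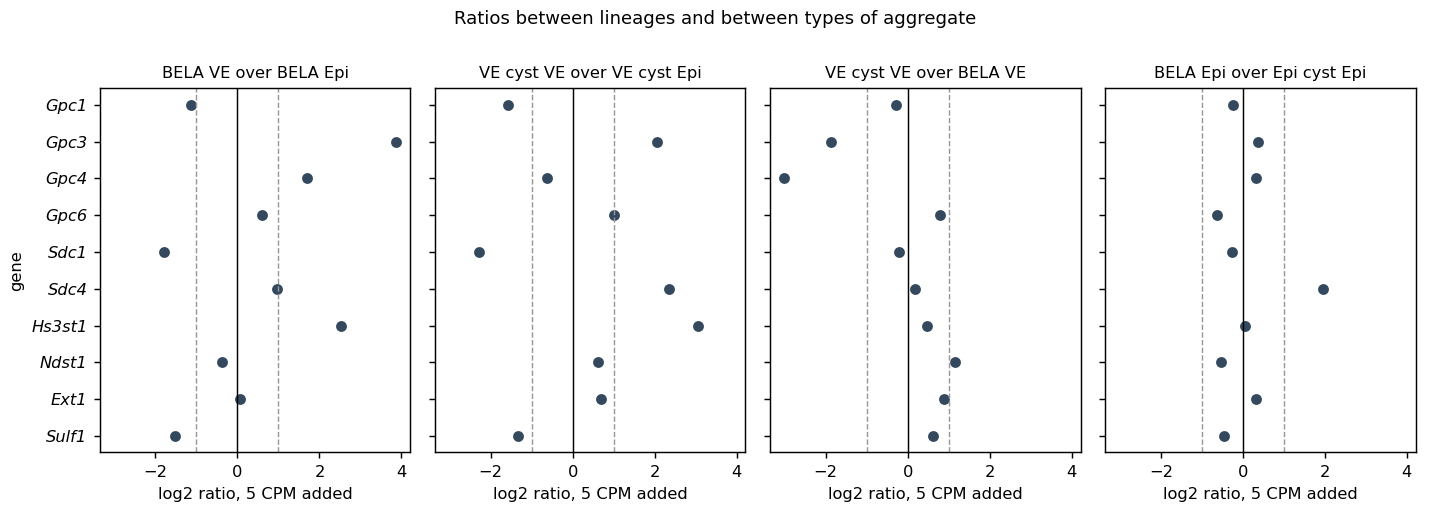
Log2 ratios of the 10 genes with 5 CPM added, between lineages (left pair of panels) and between aggregates (right pair), with dashed lines at 2-fold. Gpc4 lies at 1.70 for VE over Epi in BELAs, with the 72 cells of at least 200 CPM of Sfrp1 included, and at -0.62 in VE cysts. Sdc4 alone passes 2-fold between the Epi cells of BELAs and Epi cysts.

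The VE of BELAs, which has an Epi core beneath it, was next set beside the VE of VE cysts, which was grown without that core and in FGF4 and heparin. Gpc4 was 28.2-fold lower in VE cysts (interval 21.9 to 36.9) and Gpc3 3.76-fold lower (3.66 to 3.86), whereas Ndst1 was 4.02-fold higher (3.39 to 4.78). Ext1 was 2.02-fold higher (1.88 to 2.16) and Gpc6 2.01-fold higher (1.82 to 2.21) as plain ratios, though neither passed 2-fold once 5 CPM was added. Sdc4 differed by 1.14-fold (1.11 to 1.17) and Hs3st1 by 1.45-fold (1.34 to 1.56). Sulf1 was 1.92-fold higher in VE cysts (1.67 to 2.20).

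Of 8 members above the minimum level, 1 was higher and 2 were lower in VE cyst VE, beside 2.92% of 9381 genes higher and 1.65% lower, or 1.97% and 2.37% when ratios were centred on the median of all genes. All genes together were displaced by 0.12 on the log2 scale toward VE cysts, which is to be set against the 1.16 of Ndst1. Much of the Gpc4 in BELA VE lay in the 72 cells with at least 200 CPM of Sfrp1. Without them the ratio was 9.89 (7.63 to 13.0), since the other 470 BELA VE cells held 17.3 CPM (16.1 to 18.5). Gpc3 was then at 659.6 CPM, 3.50-fold above VE cysts, and Ndst1 4.36-fold below them. The count was again 1 higher and 2 lower, beside 2.91% and 1.51% of 9352 genes, or 1.92% and 2.10% when centred.

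The summed RNA of 12 parietal endoderm genes moved with the same contrast. They summed to 9113 CPM in BELA VE and 23309 CPM in VE cyst VE, with 11 of the 12 at 5 CPM or more and none at 0 in both. Sparc gave 5233 and 12104 CPM of these sums and Col4a1 1579 and 5180 CPM. Snai1 went the other way, at 13.6 and 7.50 CPM, and Thbd had only 7 and 6 UMIs. The sum was 248 CPM in BELA Epi and 349 CPM in Epi cyst Epi.

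Within the VE of each library the members were therefore also read in the 25% of cells with the least and the 25% with the most RNA of these 12 genes, a split made after the values were seen. In VE cysts (145 cells at each end) Gpc3 was at 347 CPM in the low and 90.8 CPM in the high end, Gpc4 at 4.84 and 0.370 CPM (3 UMIs), Hs3st1 at 15.9 and 62.8 CPM, Ext1 at 33.4 and 78.6 CPM, and Gpc6 at 16.6 and 36.2 CPM. Ndst1 was at 14.0 and 13.1 CPM, with overlapping intervals. In BELA VE without the Sfrp1-high cells (118 cells at each end) Hs3st1 was at 4.28 CPM in the low and 79.0 CPM in the high end, and Ext1 and Gpc6 were again higher in the high end, at 51.2 against 18.1 CPM and 24.3 against 9.95 CPM. Gpc4 was at 31.6 and 7.34 CPM, while Gpc3 was at 688 and 673 CPM. Sfrp1 itself was at 40.0 CPM in the low and 4.04 CPM in the high end of these BELA cells. In BELAs the split is thus not separate from the Sfrp1 level by which Gpc4 and Hs3st1 were chosen. In VE cysts Sfrp1 was at 3.95 CPM at both ends. Gpc3 thus varied with the parietal genes in VE cysts and hardly in BELAs, and the low end of VE cyst cells held less Gpc3 than either end of BELA cells. Gpc4 at the low end of VE cysts had an interval that overlapped that of the high end of BELAs. These ends are cells of 1 library and no replicates, and the part of parietal-type cells in the contrast between libraries was not tested.

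**Figure D3:**
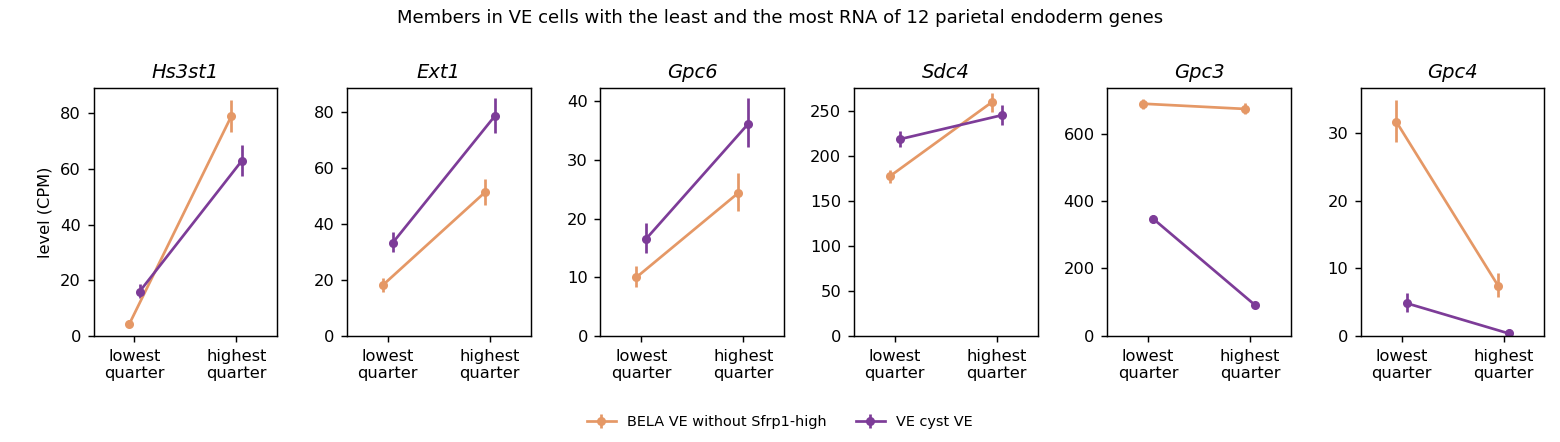
Levels (CPM) of 6 of the genes in VE cells in the 25% with the least and the 25% with the most RNA of 12 parietal endoderm genes, with exact 95% Poisson intervals, in BELA VE without the Sfrp1-high cells (118 cells at each end) and VE cyst VE (145 cells at each end). Hs3st1, Ext1 and Gpc6 are higher at the high end in both libraries, Gpc4 is lower in both, and Gpc3 is lower only in VE cysts among these 2 libraries.

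The Epi cells of BELAs, enclosed by VE and given the doxycycline pulse, were compared with those of Epi cysts, grown in matrigel with no doxycycline step given. What the difference owes to the VE layer, to matrigel, to doxycycline or to the library cannot be told apart. Sdc4 stood apart, at 102 CPM (100.1 to 104.7) in BELA Epi and 22.5 CPM (21.0 to 24.0) in Epi cyst Epi, a 4.55-fold ratio (4.25 to 4.88). It was the 1 member of 9 above the minimum that was higher, beside 1.14% of 9245 genes, and no member was lower, beside 1.29%. The ratios of the other members were under 2-fold. Gpc6 was 1.91-fold (1.70 to 2.16), Ndst1 1.83-fold (1.60 to 2.10) and Sulf1 1.45-fold (1.36 to 1.54) lower in BELA Epi, and Gpc3 1.35-fold (1.26 to 1.44) and Gpc4 1.39-fold (1.23 to 1.58) higher.

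Sdc4 was found in 82.1% of 801 thinned BELA Epi cells and 47.0% of 592 thinned Epi cyst cells (92.5% and 57.9% before thinning). The median BELA Epi cell held 58.1 CPM and the highest 1964 CPM, so the median cell lay below the group level. VE cyst Epi, the Epi cells of the VE cyst library, held 41.6 CPM (35.7 to 48.1), between the other groups. RNA of the VE markers that set the lineage reached at most 1.34% of its VE level in BELA Epi, which the rule itself keeps low, and that of the 6 further VE markers 0.526% to 14.0%, the highest being Apoe. Sdc4 in BELA Epi was at 50.4% of its level in BELA VE. Over the 801 cells Sdc4 correlated with Dab2 at r = 0.03 with Apoe at r = 0.31 and with Pou5f1 at r = -0.26, while Gata6, Cubn and Sox17 were found in too few cells for a value. The part of VE RNA in the Sdc4 of Epi cells was not tested. The genes most like it were Btg2 (r = 0.53), Mbnl2 (0.51), Mfge8 (0.46), Hspb1 (0.45) and 1700007K13Rik (0.44), named after their values were seen, and these correlations share the cells of 1 library and their depth.

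Epi cyst cells were also split by T (Brachyury), the factor of the primitive streak, after the values were seen. Between the 210 cells with a T UMI and the 446 without, no member passed 2-fold. Sulf1 was at 51.6 CPM (702 UMIs) in the former and 37.9 CPM (1034 UMIs) in the latter, a ratio of 1.36 (1.24 to 1.50).

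The contrast that chose the genes was that of BELA VE cells with at least 200 CPM of Sfrp1, which encodes a secreted Wnt antagonist. There were 72 such cells, 5.11% of BELA cells, with 7037756 UMIs, and 470 other VE cells. Markers of the anterior visceral endoderm (AVE), a signaling center that patterns the epiblast, were higher in them as a list, the 10 genes Cer1, Lefty1, Lhx1, Otx2, Eomes, Gsc, Hhex, Dkk1, Sfrp1 and Sfrp5 summing to 1552 CPM against 138 CPM. Sfrp1, which chose the cells, gave 669 and 15.0 CPM of these sums, and the other 9 genes 883 and 123 CPM. All 10 were at 5 CPM or more in the Sfrp1-high cells and 7 in the other BELA VE cells, and Lhx1 was at 237 CPM against 23.8 CPM. Sfrp5 was at 82.7 CPM in the Sfrp1-high cells and at 84.9 CPM in VE cyst VE.

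Gpc4 was at 265 CPM (253 to 277) in the Sfrp1-high cells and 17.3 CPM in the others, a 15.3-fold ratio (14.1 to 16.7). Hs3st1 was at 0.426 CPM (3 UMIs in 72 cells) and 30.4 CPM (28.8 to 32.0), a ratio of 71.2 with an interval from 24.3 to 346. Its level in the Sfrp1-high cells was near the 0.458 CPM of BELA Epi. With 72 cells chosen by 8 other AVE genes in place of Sfrp1, Hs3st1 was at 1.59 CPM (11 UMIs) and the ratio was 18.9 (10.6 to 38.0). Of these 72 cells, 60 were also Sfrp1-high cells, so this is not a separate set. After thinning, Gpc4 was found in 97.1% of 68 Sfrp1-high cells and 30.3% of 446 others, and Hs3st1 in 1.47% and 44.2%. The Hs3st1 share in Sfrp1-high cells rests on 1 cell, with an exact binomial interval from 0.0372% to 7.92%. It cannot be told from the 1.62% of BELA Epi, which is read as background.

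The other members changed less in this contrast. Gpc3 was at 1041 CPM (1017 to 1065), above the 659.6 CPM of the other VE cells, and Gpc6 at 3.84 CPM (2.53 to 5.58) against 15.0 CPM. Ext1 was at 14.9 and 29.0 CPM, Sdc4 at 149 and 211 CPM, and Sulf1 at 1.99 (14 UMIs) and 7.73 CPM. Gpc1 and Sdc1, the genes of Epi cells, were at 7.25 and 5.83 CPM against 2.55 and 2.91 CPM, and Ndst1 was at 5.26 and 3.16 CPM. The 4 Epi genes of the lineage rule summed to 21.6 CPM in the Sfrp1-high cells and 41.2 CPM in the others. The rule itself keeps this sum low in every VE cell, so nothing is read from it on Epi RNA. The 4 VE genes of the rule summed to 1770 and 3001 CPM. The 5 further Epi markers, which the rule did not use and of which Otx2 is also an AVE gene, summed to 1122 and 765 CPM. Otx2 gave 145 and 7.31 CPM of these sums. Tdgf1 alone of these markers was lower in the Sfrp1-high cells, at 3.84 and 5.48 CPM. The part of Epi RNA in these values was not tested. By the 2-fold rule 1 of the 6 members above the minimum was higher (Gpc4) and 2 were lower (Gpc6 and Hs3st1), beside 2.68% of 9238 genes higher and 1.58% lower, and nothing is read from this count because it chose the genes. The 12 parietal genes were lower as a sum in these cells, at 3687 against 9917 CPM. Of them, Thbd and Fst were at 0 UMIs, but Thbd had only 7 UMIs in the other BELA VE cells. Vim was at 22.3 and 21.4 CPM and Snai1 at 10.8 and 14.0 CPM, with overlapping intervals for both genes. Of 7 streak and mesoderm genes, which summed to 293 against 21.1 CPM, Eomes and Fgf8 gave 147 and 139 CPM, and T and Mesp1 were at 0 UMIs. Of 8 trophoblast genes, which summed to 912 against 343 CPM, Krt8, a keratin also made by endoderm, gave 809 and 301 CPM. The part of these lists in the members' values was not tested.

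Along Sfrp1, Gpc4 and Hs3st1 crossed below the threshold of 200 CPM. In the 289 BELA VE cells with no Sfrp1 UMI Gpc4 was at 10.1 CPM and Hs3st1 at 39.3 CPM, and in the 143 cells under 50 CPM they were at 17.9 and 22.8 CPM. In the 18 cells from 50 to 100 CPM they were at 50.1 and 1.79 CPM. Just outside the threshold, in the 20 cells from 100 to 200 CPM, they were at 71.2 CPM (60.7 to 83.0) and 5.27 CPM (2.73 to 9.21). Just inside, in the 14 cells from 200 to 400 CPM, they were at 109 CPM (95.4 to 124) and 0.971 CPM (0.118 to 3.51), and in the 58 cells above that at 329 and 0.201 CPM (1 UMI). The fall of Hs3st1 was thus already seen at 50 CPM of Sfrp1, while Gpc4 was higher in each successive bin. Of these bins, 3 hold 20 cells or fewer.

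**Figure D4:**
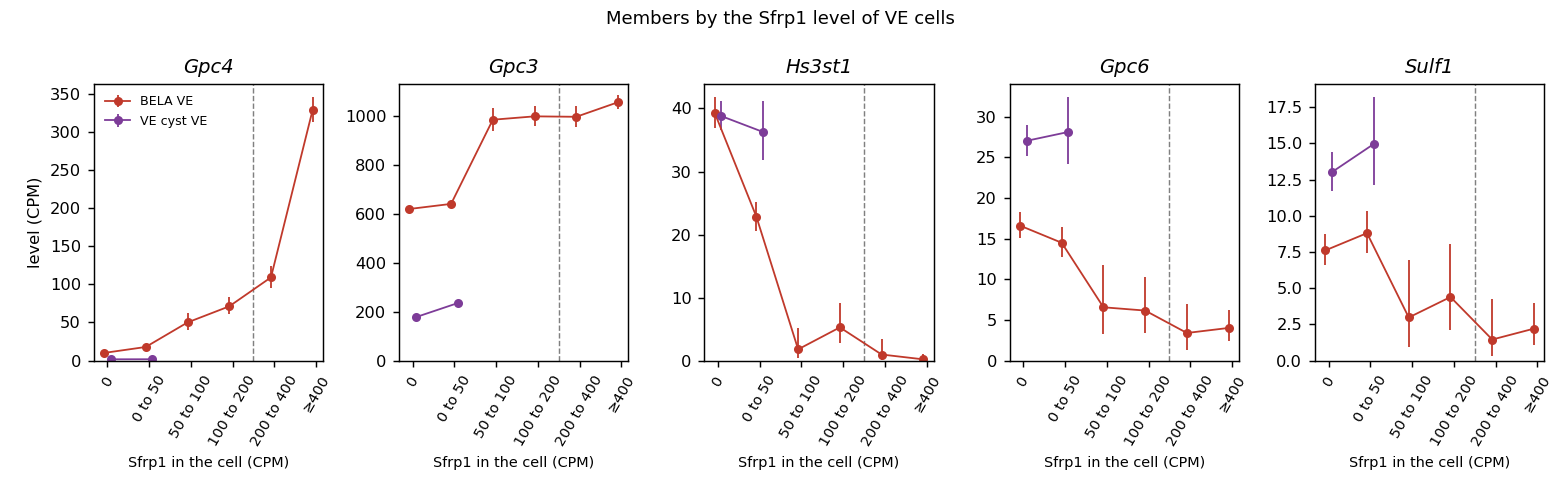
Levels (CPM) of 5 of the genes in BELA VE and VE cyst VE cells grouped by their own Sfrp1 level, with exact 95% Poisson intervals and a dashed line at the threshold of 200 CPM; bins of fewer than 10 cells are not drawn. In BELA VE, Gpc4 goes from 10.1 to 329 CPM and Hs3st1 from 39.3 to 0.201 CPM, while VE cysts have no bin above 50 CPM with enough cells.

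In VE cysts 486 of 577 VE cells had no Sfrp1 UMI, 89 had less than 50 CPM and 2 had 50 to 100 CPM. Gpc4 was at 1.74 CPM in the first and 1.81 CPM in the second of these groups, and Hs3st1 at 38.8 and 36.3 CPM, with overlapping intervals for both genes. BELA VE cells without Sfrp1 and those VE cyst cells overlapped in Hs3st1, at 39.3 CPM (37.0 to 41.8) and 38.8 CPM (36.6 to 41.1), but the BELA cells held 10.1 CPM (8.91 to 11.4) of Gpc4 against 1.74 CPM (1.29 to 2.29).

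The share of BELA VE cells with Hs3st1 was lower the more Gpc4 they held, which the choice of the genes fixes in part. Among thinned cells an Hs3st1 UMI was found in 49.5% (43.8 to 55.2, exact binomial) of the 313 cells with no Gpc4 UMI, in 32.5% (24.0 to 41.9) of the 114 cells with 1 to 3, and in 6.90% (2.57 to 14.4) of the 87 cells with 4 or more. Among cells under the Sfrp1 threshold the shares were 49.8% of 311 (44.1 to 55.5), 34.6% of 107 (25.6 to 44.4) and 17.9% of 28 (6.06 to 36.9). The last share rests on 5 cells, and its interval overlaps that of the middle group. In VE cysts 451 of 473 thinned cells had no Gpc4 UMI, and 63.2% (58.6 to 67.7) of these had Hs3st1, as did 11 of the 22 cells with 1 to 3 Gpc4 UMIs (exact binomial interval 28.2% to 71.8%).

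The correlation over the 514 thinned BELA VE cells was r = -0.27 for Gpc4 with Hs3st1, 0.31 for Gpc4 with Gpc3, 0.27 for Hs3st1 with Gpc6 and 0.25 for Hs3st1 with Ext1. The genes most like Gpc4 among 8713 were Sfrp1 (r = 0.82), Grb10, an adaptor of growth factor receptors (0.75), Otx2, a transcription factor of the AVE (0.74), Irs4, an insulin receptor substrate (0.73), and Tspan7, a tetraspanin (0.71). Those most like Hs3st1 were P4ha2, a collagen prolyl hydroxylase (0.59), Erp29, a chaperone of the endoplasmic reticulum (0.52), Lifr, the LIF receptor (0.49), Anxa2 (0.49) and the laminin chain Lama1 (0.49). Gpc4 and Hs3st1 were chosen by their levels in the Sfrp1-high cells among these same BELA VE cells. That choice fixes in part the place of Sfrp1 beside Gpc4 and the r of -0.27. All cells came from 1 library and shared 1 depth after thinning, and the values are given as a description.

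The members were last placed among 58 genes of the heparan sulfate pathway. Beyond the 10 members the list holds 48 genes, 25 of which reached the minimum in BELA VE against BELA Epi. Of these, 11 were higher in VE and 2 lower, beside 14.1% and 8.85% of all genes, with a median log2 ratio of 0.52 beside -0.05 over all genes tested. The basement membrane core proteins perlecan (Hspg2) and agrin (Agrn) were at 118 and 62.0 CPM in BELA VE and at 20.1 and 16.5 CPM in BELA Epi, and Tgfbr3, a coreceptor that carries such chains, was at 22.7 and 1.87 CPM. The core protein of collagen XVIII (Col18a1) went the other way, at 9.39 and 112 CPM, as did Sdc2 at 2.02 and 10.5 CPM.

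Of 9 listed genes that supply sulfate and sugar precursors, 8 reached the minimum and 6 were higher in BELA VE, namely the sulfate transporter Slc26a2 (85.7 against 7.74 CPM), the sulfate donor synthase Papss1 (41.7 against 16.6 CPM), the nucleotide-sugar and donor transporters Slc35b2, Slc35b3 and Slc35d2, and Ugp2. Ugdh was at 24.8 CPM in BELA VE and 34.2 CPM in BELA Epi, and Impad1 at 42.7 and 50.1 CPM. The same 6 of 8 were higher in VE of VE cysts. Among the polymerases Ext2, the partner of Ext1, was at 34.3 and 13.2 CPM in BELA VE and BELA Epi, whereas Ext1 did not differ beyond its counting interval. Of the other 3-O-sulfotransferases none reached the minimum in any of the comparisons. Hs3st6 was at 1.94 CPM in BELA Epi and 0.312 CPM in BELA VE, and Hs3st3b1 at 4.28 CPM in VE cyst VE and 0.464 CPM in VE cyst Epi. Of the 6-O enzymes Hs6st2 was at 1.27 CPM in VE cyst VE and 18.3 CPM in VE cyst Epi.

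In VE cysts 12 of the 26 other pathway genes above the minimum were higher in VE and 2 lower, beside 20.1% and 11.5% of all genes, with a median of 0.88 beside 0.11 over all genes. Between the VE of VE cysts and BELAs 3 of 25 were higher, namely Tgfbr3 (74.7 against 22.7 CPM), Papss2 (8.54 against 1.54 CPM) and Slc26a2 (193 against 85.7 CPM), and none was lower, beside 2.92% and 1.65% of all genes. Between the Epi cells of BELAs and Epi cysts none of 24 passed 2-fold, beside 1.14% higher and 1.29% lower of all genes. Sfrp1-high cells had 1 of 24 lower, Hspg2 at 40.6 against 129.7 CPM, and none higher, beside 1.58% and 2.68% of all genes.

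**Figure D5:**
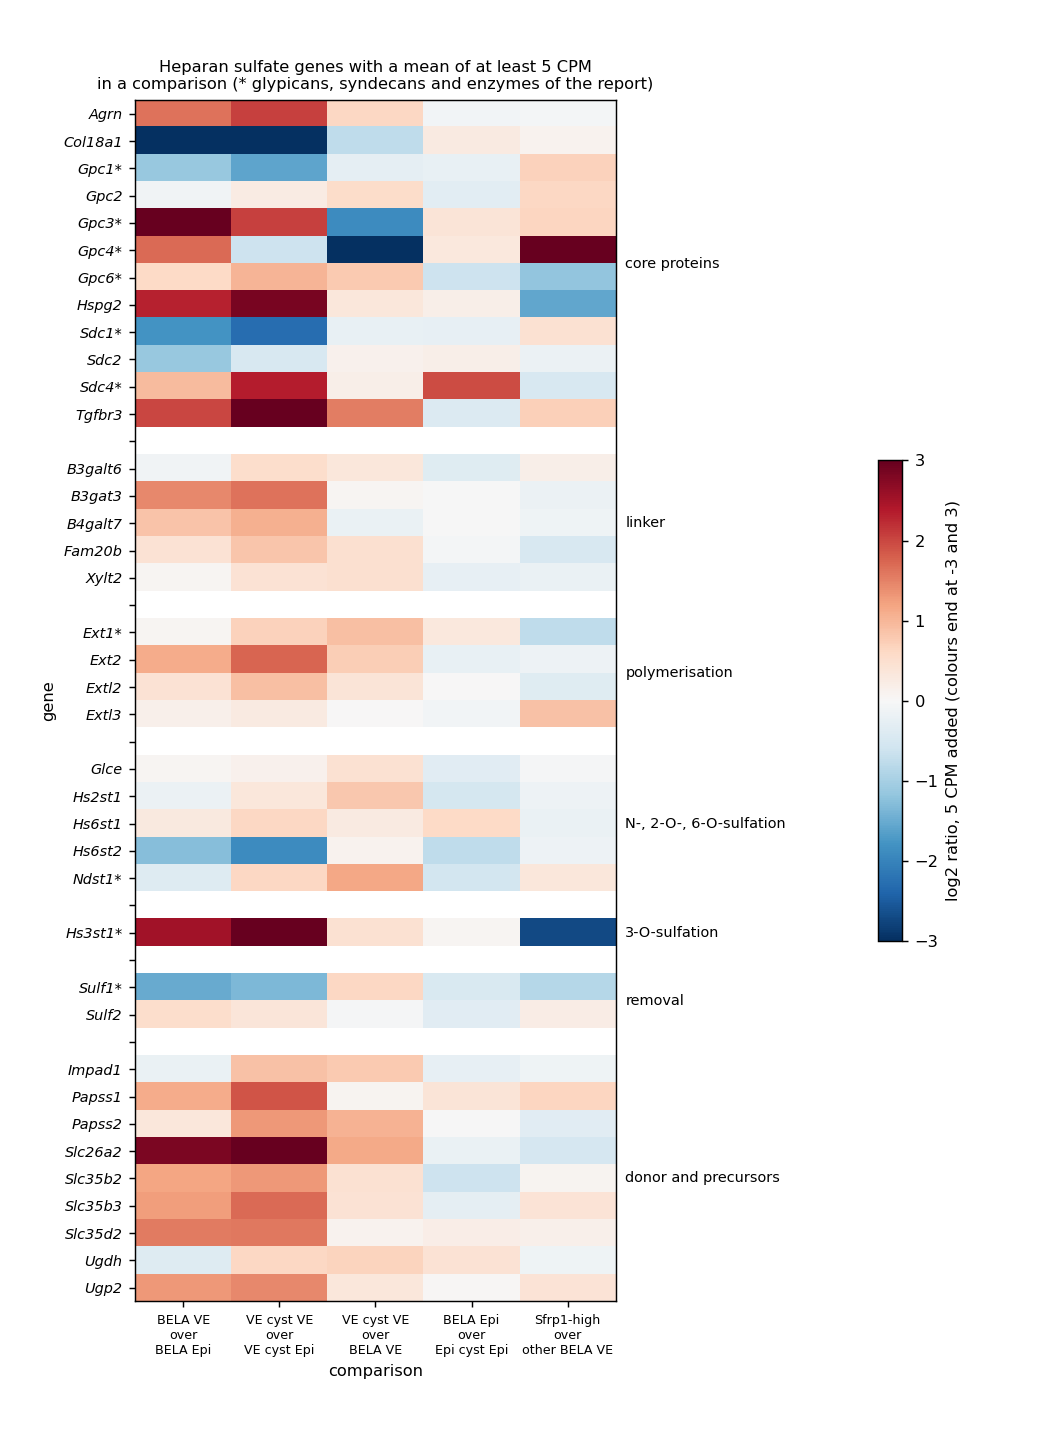
Log2 ratios (5 CPM added, colours end at -3 and 3) of the heparan sulfate genes with a mean of at least 5 CPM in any of 5 comparisons, grouped by step; asterisks mark the 10 genes of the report. Col18a1 and Hspg2 lie far apart for VE over Epi, at -3.02 and 2.30 in BELAs, and the column of BELA Epi over Epi cyst Epi is pale but for Sdc4.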

How the data were processed

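Each of the 3 kinds of aggregate was sequenced once. The deposited tables hold raw UMI counts for 32285 genes, which per the labels the authors made with Cell Ranger 4.0.0 on mm10. The 10 genes and all gene lists were chosen with earlier results of these data known, and 1 gene of a marker list is not reported here. Cells with fewer than 4000 genes or over 10% mitochondrial UMIs were dropped (810, 419 and 256 barcodes). The 5 cells with equal marker sums, 1 in Epi cysts and 4 in VE cysts, were put to Epi. UMIs were summed per group. Named pathway genes had to pass 2-fold, with at most 6 taken per comparison by size of the ratio, beside the totals of each step and genes set next to a member. Likeness was the Pearson correlation of log-scaled counts over cells thinned to 40000 UMIs, among genes found in at least 20% of them. Scrublet in scanpy 1.11.5 called 12, 16 and 3 doublets among kept cells, which were left in and removed in an alternative. Gene positions came from GENCODE on GRCm38, the same build as mm10. Python 3.11.15, numpy 2.4.6, scipy 1.17.1 and pandas 2.3.3 were used, and the scripts were tested on simulated data. Alternatives changed the CPM added, the minimum level, the cell filter, the lineage rule, the depth, the total, the centring and the Sfrp1 threshold. 3' counts do not separate isoforms.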

Additional observations from a re-analysis of the deposited data

Results flagged for a closer look

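The log2 ratio of VE over Epi had opposite signs in the libraries for 2 genes. Gpc4 was at 1.70 in BELAs and -0.62 in VE cysts, and Ndst1 at -0.38 in BELAs and 0.62 in VE cysts. The difference was not tested, because each library was made once. The VE cyst values rest on 48 Epi cells, with 23 UMIs of Gpc4 and 31 of Ndst1. Gpc4 in VE cysts and Ndst1 in BELAs were below the minimum mean of 5 CPM. The 1.70 of Gpc4 in BELAs includes the 72 Sfrp1-high cells that chose it. The other 470 BELA VE cells held 17.3 CPM of Gpc4 against 11.7 CPM in BELA Epi.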

How the results depend on the processing

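No paired analysis was possible because each kind of aggregate is 1 library with no replicate. Of 142 counts of members recomputed under an alternative, 128 stayed within 1.5 times the reported count. With 20 CPM added, the members lower in VE than Epi were 0 in BELAs and 1 in VE cysts, those higher in VE cyst VE than BELA VE were 0 with and 0 without the Sfrp1-high cells, those lower there without these cells were 1, and those lower in Sfrp1-high cells were 1. With a minimum mean of 20 CPM, fewer genes were read: the members lower in VE than Epi were 0 in BELAs and 1 in VE cysts, those higher in VE cysts were 2, those higher in VE cyst VE than BELA VE were 0 with and 0 without the Sfrp1-high cells, those lower there without them were 1, and those lower in Sfrp1-high cells were 0. With cells chosen by 8 other AVE genes (72 cells, 60 shared), 1 member was lower. Gpc6 then was at a log2 ratio of -0.85, while Gpc4 was at 250.5 against 20.0 CPM and Hs3st1 at 1.59 against 30.1 CPM. Of 710 log2 ratios of single members recomputed, 161 moved beyond counting error and none was counted as reversed. That of Ext1 for VE over Epi in BELAs, reported at 0.05, ranged from -0.06 to 0.10, so its sign was not fixed. Over all genes the median log2 ratio of VE over Epi in BELAs was -0.17 with mitochondrial and ribosomal UMIs left out of the total. With 1 library per kind, differences between aggregates cannot be told from differences between libraries.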

Other observations

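Genes of the chondroitin sulfate branch, which shares its linker and precursors with heparan sulfate, were also read. Of 16 listed, 5 reached the minimum in BELA VE against BELA Epi, and 2 of these were higher in VE, the sulfotransferases Chst12 (19.7 against 4.96 CPM) and Chst15 (33.2 against 2.69 CPM), beside 14.1% of all genes. In VE cysts 4 of 8 were higher in VE (Chpf2, Csgalnact1, Chst12 and Chst15), beside 20.1% of all genes. Chst11, a chondroitin 4-O-sulfotransferase, was at 14.8 CPM in Sfrp1-high cells and 1.35 CPM in the other BELA VE cells. The chain synthase Chsy1 was at 4.62 CPM in BELA Epi and 15.6 CPM in Epi cyst Epi. Between the VE of VE cysts and BELAs, Chpf2 was at 26.2 and 10.2 CPM.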
